A study of Drosophila melanogaster with 36 samples.

Results

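Transcripts of 9 Drosophila blood cell genes, NimC1, eater, Hml, crq, Sr-CI, NimC2, NimB4, Pxn and srp, were followed through 36 RNA-seq libraries of fly heads. The genes were taken by name out of the 17611 genes counted, and all 9 were found. The set was chosen by a measured value: NimC1 was far lower in dnmnatOE in inputs and pulldowns, and the other 8 were added to see whether they shared that difference. The dnmnatOE differences of NimC1, and its level in wild type against background, are therefore given as a description with no test. A fit of all genes tested the other 8 genes and the response of NimC1 to injury within a genotype. It also compared that response between wild type and background. The injury response did not choose NimC1, but libraries of these tests took part in choosing it. Its p-values and calls there are thus no separate support, and counts out of 9 members include it.

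The libraries came from 3 genotypes, uninjured or 7 days post axotomy (dpa), which was done by ablating the antennae and maxillary palps. Background was w; orco-Gal4/+ and carried no tagged ribosome. Wild type added 5xUAS-GFP::RpL10Ab/+ on the third chromosome, so that GFP-tagged ribosomes were made in olfactory neurons, and dnmnatOE was orco-Gal4/5xUAS-dnmnat with the same tag. Every group thus carried orco-Gal4 in a w background, the driver being active in olfactory neurons and not in blood cells. The methods give animals aged 5 to 10 days before ablation and 300 animals for each genotype and condition. No age is given for the uninjured animals in the sources used here, so injury and age cannot be told apart. Each group was sequenced as input, poly-A RNA of the whole head lysate, and as pulldown, RNA from anti-GFP beads without poly-A selection. According to the labels the 3 libraries in each group are technical replicates, and p-values are hence read as the spread between libraries made from 1 pool of flies. The study's methods give, as a general rule, at least 3 biological replications. The labels are followed here. The dnmnat transgene and the second chromosome that carries it cannot be told apart either, and NimC1 lies on the second chromosome.

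Drosophila blood cells, the hemocytes, are mostly plasmatocytes, macrophage-like cells that engulf bacteria and dying cells, and adult heads hold some of them beneath the cuticle. Many plasmatocyte surface receptors belong to the Nimrod family, whose extracellular parts are built of EGF-like repeats, or to the scavenger receptors. NimC1 and eater are such receptors for bacteria, and serpent (srp) is the GATA transcription factor needed to make blood cells.

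Inputs held 6628633 to 22329307 counts on genes per library and pulldowns 644358 to 2057294. The background inputs of 7 dpa were the shallowest, at 6628633 to 7414020 counts. Although the labels name olfactory sensory neurons as the cell type, the inputs carried markers of the whole head: the 4 photoreceptor genes listed summed to 10604 CPM (reads of the gene scaled to a fixed total of normalized library size) or more in every input. The olfactory co-receptor gene Orco averaged 15.8 to 28.2 CPM in uninjured inputs and 0.675 to 2.20 CPM at 7 dpa. Nmnat, the gene overexpressed in olfactory neurons, did not stand out in dnmnatOE inputs (26.3 CPM ± 3.45, SD, n = 3 uninjured, against 23.6 ± 2.96 in wild type). In uninjured pulldowns it averaged 14.5 CPM ± 6.74 in dnmnatOE, 28.5 ± 18.7 in wild type and 26.1 ± 10.2 in background (SD, n = 3), so its level does not mark the dnmnatOE libraries, and the genotypes are used as labelled. In bulk RNA, fewer cells of a type and less RNA per cell cannot be told apart.

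Levels between genes were compared per kilobase of annotated exon. In wild-type inputs of 7 dpa, Sr-CI, a scavenger receptor, was highest at 334 CPM per kb, before NimB4, a secreted Nimrod protein, at 171, eater at 138 and NimC1 at 121. They were followed by crq, the receptor croquemort for dying cells, at 58.9, the matrix peroxidase gene Pxn at 52.9, NimC2 at 31.7, srp at 28.5 and Hml, which encodes the clotting protein hemolectin, at 25.7 CPM per kb. Only the neighbours crq and Pxn overlapped between their libraries in that order. In dnmnatOE inputs of 7 dpa, NimB4 (245 CPM per kb) and Sr-CI (241) led with overlapping libraries, eater (92.8) and crq (84.4) overlapped as well, and NimC1 was last at 1.74 CPM per kb, apart from all other members.

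NimC1 (FBgn0259896, chromosome 2L, 13973158 to 13976769 on the minus strand, Release 6 assembly) was low in dnmnatOE heads at both times. In uninjured inputs its 3 libraries held 12.05, 11.5 and 10.9 CPM in background, 62.4, 59.9 and 67.3 CPM in wild type and 3.24, 2.99 and 4.34 CPM in dnmnatOE. At 7 dpa they held 62.1, 56.1 and 56.6 CPM in background, 413, 394 and 384 CPM in wild type and 5.41, 4.88 and 6.89 CPM in dnmnatOE. The dnmnatOE libraries did not overlap with those of another genotype, and after injury they lay below even the uninjured background. The fitted level was 18.03-fold lower in dnmnatOE than in wild type before injury (log2 fold change −4.17, SE 0.13) and 68.9-fold lower at 7 dpa (−6.11, SE 0.13). NimC1 was still counted in dnmnatOE, with 52 to 72 reads per uninjured input and 55 to 94 per input of 7 dpa.

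The other members lie elsewhere except for 2 of the same gene cluster. NimB4 (2L, 13968280 to 13969976, minus strand) and NimC2 (2L, 13980126 to 13983269, plus strand) flank NimC1. Sr-CI (2L, 4121702 to 4124153, plus strand) and crq (2L, 448254 to 453024, minus strand) share its chromosome arm. eater (3R, 27095867 to 27099679, minus strand), srp (3R, 15986152 to 16004085, plus strand), Hml (3L, 13846054 to 13860001, plus strand) and Pxn (3L, 2601455 to 2630064, minus strand) lie on the third chromosome, which carries no dnmnat transgene.

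**Figure D1:**
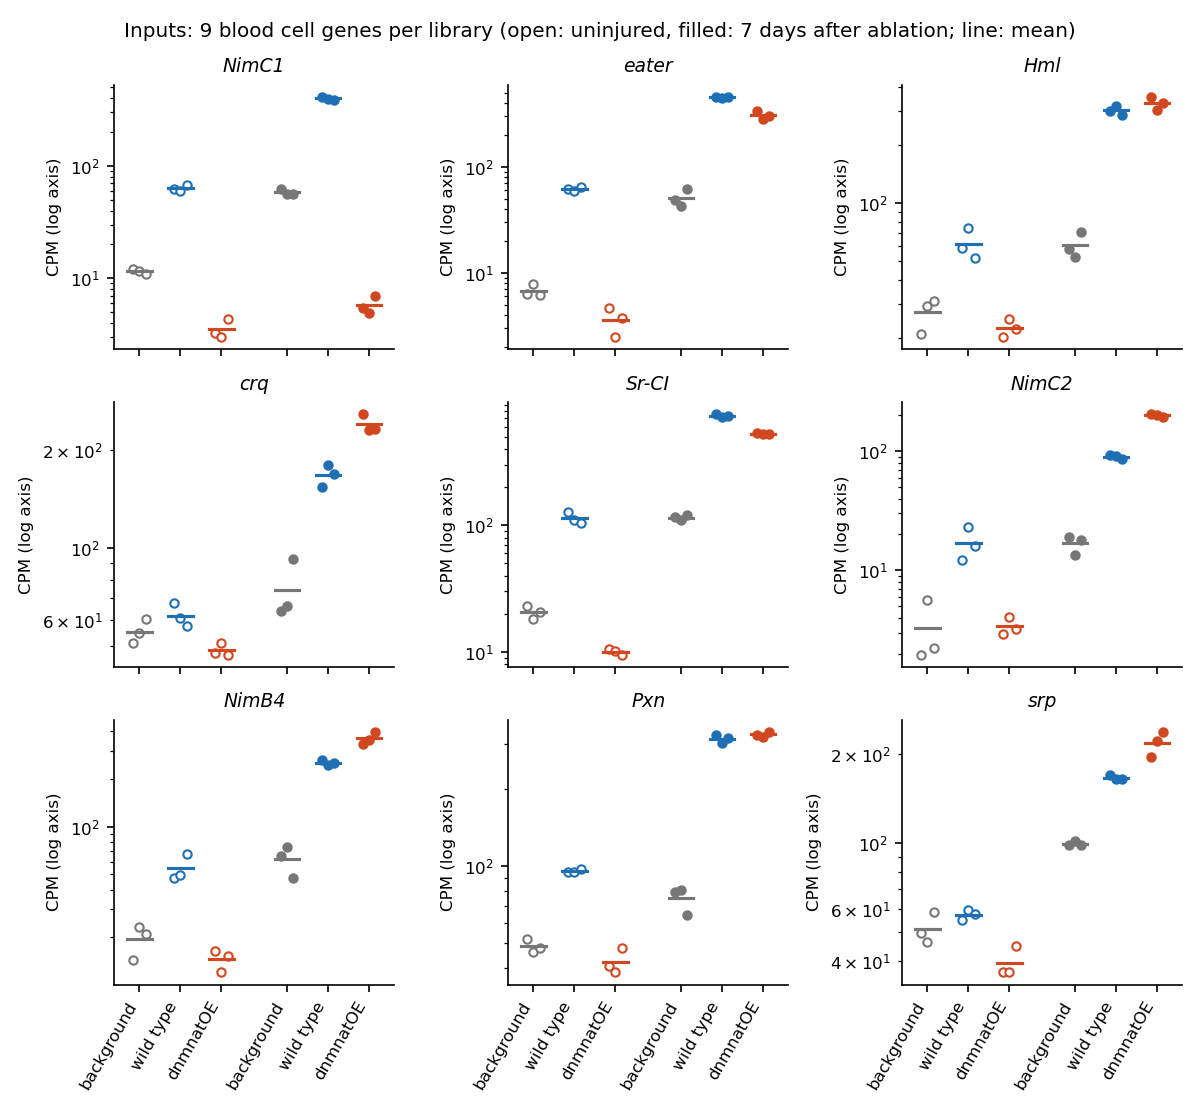
CPM of the 9 blood cell genes in each input library (log axes, a separate range for each gene); open points are uninjured, filled points 7 dpa, and lines are means of 3 libraries. In dnmnatOE at 7 dpa NimC1 stays at 4.88 to 6.89 CPM, while each other gene stands well above its uninjured level.

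Before injury, most of the other blood cell genes were also lower in dnmnatOE heads than in wild type. Against background only 2 of the 8 were lower in dnmnatOE (4.13% of all genes), whereas 6 of the 8 were higher in wild type than in background (5.37%). In uninjured inputs, 6 of the other 8 were called lower in dnmnatOE than in wild type, against 6.44% of all genes tested (called: edgeR adjusted p of at most 0.05 and log2 fold change beyond 0.6). The receptor eater (chromosome 3R) fell nearly as far as NimC1, from 62.5, 59.8 and 64.2 CPM in wild type to 4.65, 2.47 and 3.73 CPM in dnmnatOE (log2 fold change −4.08, SE 0.14, edgeR adjusted p = 6.9e-25). Sr-CI fell from 127, 110.1 and 104 CPM to 10.5, 10.1 and 9.45 CPM (−3.50, SE 0.09). These differences were 16.9-fold and 11.3-fold, and no library of dnmnatOE reached the lowest of wild type.

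The Nimrod genes NimC2 and NimB4 and the secreted products Hml and Pxn were also lower in uninjured dnmnatOE inputs, by smaller margins. NimC2, a transmembrane relative of NimC1, differed by −2.35 (SE 0.32) on the log2 scale and NimB4 by −1.90 (SE 0.20). Hml differed by −1.46 (SE 0.14) and Pxn by −1.18 (SE 0.09). Croquemort and serpent were not called, at −0.36 (SE 0.10, edgeR adjusted p = 0.010) and −0.54 (SE 0.10, 2.1e-05), though serpent was called without dnmnatOE uninjured replicate 3 (−0.65). Both genes are also expressed outside blood cells, srp in fat body among other tissues, and so is Pxn, which was called. Over all genes tested the median was −0.01, against −1.68 over the 8 members.

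At 7 dpa the genotype differences of the other members were small beside that of NimC1. Of the other 8 members, 1 was called higher in dnmnatOE than in wild type and none was called lower, against 5.98% and 7.27% of all genes. The count of 0 became 2 at an unadjusted edgeR p under 0.05 and stayed 0 with DESeq2. The gene called higher was NimC2, at 204, 202 and 193 CPM in dnmnatOE and 92.5, 91.0 and 85.1 CPM in wild type (log2 fold change 1.16, SE 0.24, edgeR adjusted p = 0.0019). Its libraries did not overlap, and its direction was opposite to that of NimC1, which lies 3.36 kb away on the chromosome. This call was lost in 1 fit of all 36 libraries (1.12).

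The remaining members differed by at most 0.57 on the log2 scale between the genotypes at 7 dpa. eater held 336, 284 and 299 CPM in dnmnatOE against 461, 449 and 456 CPM in wild type (−0.57, SE 0.10). Sr-CI held 539.8, 524 and 526 CPM against 757, 721 and 729 CPM (−0.47, SE 0.07). Both receptors were thus somewhat lower without overlap, within the fold limit, and eater passed it without dnmnatOE replicate 1 of 7 dpa (−0.64). Both passed it when total gene counts served as library sizes (−0.91 and −0.81), a scaling under which the median of all genes moved to −0.33. Hml (0.13, SE 0.13) and Pxn (0.05, SE 0.08) overlapped between the genotypes, and their sign turned under that scaling (−0.20 and −0.28). NimB4 (0.51), crq (0.52) and srp (0.39) were above wild type in all libraries and not called. Scaled by total gene counts, crq (156.3 to 179 against 133 to 156.4 CPM) and srp (136 to 164 against 143 to 147 CPM) overlapped, and NimB4 did not.

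The values of the other 5 members show the same order of genotypes changing between the time points. NimB4 ranged from 12.01 to 16.3 CPM in uninjured dnmnatOE, 47.3 to 66.7 CPM in wild type and 14.3 to 23.2 CPM in background, and at 7 dpa from 333 to 397, 243 to 263 and 47.7 to 74.7 CPM. Hml ranged from 20.2 to 24.99, 51.9 to 74.3 and 20.9 to 31.2 CPM before injury and from 305 to 357, 287 to 319 and 52.5 to 71.3 CPM at 7 dpa, in the same order of genotypes. Pxn, whose product builds the extracellular matrix, ranged from 38.3 to 47.6, 94.4 to 97.1 and 46.0 to 52.0 CPM and then from 319.5 to 335, 304 to 325 and 64.2 to 80.8 CPM. Uninjured dnmnatOE thus lay below wild type for all 3 genes and reached it or passed it at 7 dpa. crq ranged from 47.0 to 50.9, 57.5 to 67.6 and 51.0 to 60.3 CPM before injury and from 231 to 258, 154 to 180.1 and 63.9 to 92.6 CPM at 7 dpa. srp ranged from 36.5 to 45.0, 55.1 to 59.3 and 46.2 to 58.6 CPM and then from 196 to 238, 164 to 170.3 and 98.3 to 102 CPM.

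All 9 members were higher at 7 dpa than uninjured in every genotype, and the difference was largest in dnmnatOE for each of them except NimC1, whose sign in dnmnatOE turned with total gene counts as library sizes (−0.033). In wild-type inputs all 9 members rose at 7 dpa (8 of 8 without NimC1), against 17.8% of all genes. The rise was 1.43 for crq to 2.87 for eater on the log2 scale. NimC1 rose by 2.65 (SE 0.10, edgeR adjusted p = 3.8e-28), 6.28-fold, between eater and Hml (2.29). In background inputs 8 of 9 rose (7 of 8 without NimC1), against 9.99% of all genes, by 0.62 for Pxn to 2.90 for eater. NimC1 rose by 2.34 (SE 0.11) and NimC2 by 2.33, or 3.02 without background uninjured replicate 2. Only crq was not called there (0.42), and Pxn fell under the fold limit without background uninjured replicate 2 or without background replicate 1 or 2 of 7 dpa (0.56 to 0.58).

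In dnmnatOE inputs the other 8 members all rose, against 26.5% of all genes. eater rose by 6.38 (SE 0.14), 83.2-fold, NimC2 by 5.89 (SE 0.32) and Sr-CI by 5.72 (SE 0.09). NimB4 rose by 4.63, Hml by 3.88, Pxn by 2.95, srp by 2.47 and crq by 2.31. With total gene counts as library sizes these 8 values lay between 1.56 for crq and 5.63 for eater, and all stayed called. NimC1 was called as well but rose by 0.72 only (SE 0.16, edgeR adjusted p = 8.2e-05), 1.64-fold. That call did not hold with total gene counts as library sizes (−0.03, where the median of all genes moved to −0.81), in a fit of the compared groups alone (0.70, edgeR adjusted p = 0.15), in 1 fit of all 36 libraries (0.46) or without dnmnatOE replicate 3 of 7 dpa (0.56).

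**Figure D2:**
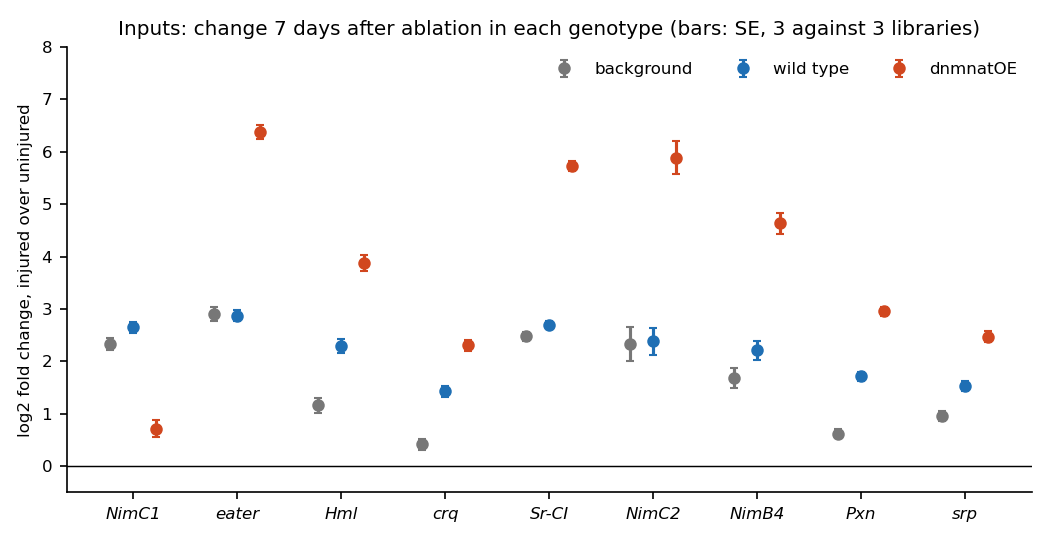
log2 fold change of each blood cell gene in inputs, 7 dpa over uninjured, for background (grey), wild type (blue) and dnmnatOE (red); points are edgeR estimates from 3 against 3 libraries, bars are SE. The red point is the highest of the 3 for every gene except NimC1, where it is the lowest (0.72 against 2.34 and 2.65).

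The injury response was then compared between genotypes by an interaction contrast. It was larger in dnmnatOE than in wild type for all 8 other members, against 13% of all genes, by 3.50 for eater (SE 0.17, edgeR adjusted p = 1.4e-19), 3.51 for NimC2 and 3.03 for Sr-CI down to 0.88 for crq (SE 0.14, edgeR adjusted p = 2.2e-06). For crq and srp it dropped under the fold limit with total gene counts as library sizes (0.51 and 0.57), and 1 fit of all 36 libraries called 5 of the 8. For NimC1 the corresponding value was −1.94 (SE 0.19), a description only. By the labels, each genotype here stands for single pools of flies before and after injury.

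2 further contrasts, added after the data had been seen, set the other genotypes against background. The injury response was larger in wild type than in background for 3 of 9 members, against 4.93% of all genes: Hml (1.13, SE 0.19), Pxn (1.10, SE 0.12) and crq (1.01, SE 0.15). The contrast was 0.31 (SE 0.15) for NimC1 and −0.03 (SE 0.16) for eater, neither of them called. Without background uninjured replicate 1, 5 members were called. In dnmnatOE the response exceeded that of background for all 8 other members, against 19.4% of all genes, by 1.52 for srp to 3.56 for NimC2, which was at 2.87 without background uninjured replicate 2.

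Counts within a library describe the same reads without any library size. This comparison was also made after the data had been seen. It reuses the NimC1 reads by which the set was chosen and adds no separate support. NimC1 had 0.999 to 1.05 reads for each eater read in wild-type inputs before injury and 0.843 to 0.895 at 7 dpa, and 0.921 to 1.89 in background inputs. In uninjured dnmnatOE inputs the ratio was 0.696, 1.21 and 1.16. These libraries all lay below those of uninjured background (1.48 to 1.89) and on both sides of uninjured wild type (0.999 to 1.05). At 7 dpa it was 0.0161, 0.0172 and 0.0230 in dnmnatOE. Against Sr-CI, NimC1 had 0.472 to 0.647 reads per read in all background and wild-type inputs, 0.297 to 0.459 in uninjured dnmnatOE and 0.00932 to 0.0131 in dnmnatOE at 7 dpa. As a share of the counts of all 8 other members, NimC1 was already low in uninjured dnmnatOE, at 1.67% to 2.24%, against 11.3% to 13.1% in wild type and 4.41% to 5.50% in background. At 7 dpa the shares were 0.200% to 0.270%, 15.6% to 16.4% and 9.88% to 11.4%. Before injury NimC1 was thus low against wild type together with eater and Sr-CI, and by more than the other 6 members, whereas at 7 dpa it was far lower than either, both of which were themselves somewhat below wild type.

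Over the 18 inputs, the 28 pairs among the other 8 members had a Pearson r of log2(CPM + 1) of 0.881 to 0.996, whereas NimC1 had an r of 0.228 with crq to 0.591 with eater and Sr-CI. These values share the 6 groups of libraries and describe the pattern only. Among 9030 genes tested with at least 20 counts on average, eater ranked 109 and Sr-CI 110 in likeness to NimC1. The 5 genes most alike were BaraA1 (r 0.902, chromosome 2R), which encodes the precursor of antimicrobial Baramicin peptides, CG42876 (0.880, 2L), the cytochrome P450 gene Cyp6a17 (0.857, 2R), the glutathione S-transferase gene GstE1 (0.852, 2R) and CG9394 (0.850, 2R). BaraA1 averaged 86.0 CPM in wild-type inputs of 7 dpa and 0.974 CPM in those of dnmnatOE, and Cyp6a17 averaged 67.6 CPM against 0 reads in the latter. The others differed less, CG42876 with 5.83 against 0.876 CPM, GstE1 with 136 against 28.3 CPM and CG9394 with 141 against 70.1 CPM, and CG9394 had 105 against 90.6 CPM before injury. None of the 5 is a member or a Nimrod gene.

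Wild type, which adds the tagged ribosome transgene and comes from other pools of flies, held more of most members than background. In uninjured inputs 6 of the other 8 members were called higher in wild type than in background, against 5.37% of all genes. They included eater by 3.19 (SE 0.13), NimC2 by 2.36 (3.05 without background uninjured replicate 2) and Sr-CI by 2.46. NimC1 stood 2.45 higher (SE 0.11), given with no test because its wild-type libraries took part in choosing it. crq (0.17) and srp (0.16) overlapped and were not called. At 7 dpa all 8 of these were called higher, against 11.6% of all genes, by 0.74 for srp to 3.16 for eater. For srp this fell under the fold limit with total gene counts as library sizes (0.39). dnmnatOE and background were nearer to each other before injury: eater (−0.89, SE 0.16) and Sr-CI (−1.04, SE 0.09) were called lower in dnmnatOE, against 4.13% of all genes, and the other 6 were not, while NimC1 stood at −1.72. 1 fit of all 36 libraries called neither, and a fit of the compared groups alone called Sr-CI only. At 7 dpa the 8 other members were all higher in dnmnatOE than in background, against 18.9% of all genes, by 1.13 for srp to 3.57 for NimC2, whereas NimC1 was at −3.34, 10.1-fold lower. With total gene counts as library sizes, where the median of all genes moved to −0.67, srp fell under the fold limit (0.45), NimC1 was at −4.02 and eater, for example, at 1.90 instead of 2.59. These comparisons share the same wild-type, dnmnatOE and background libraries.

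Most other genes of phagocytosis were lower in dnmnatOE than in wild type before injury and rose with injury. Of 18 further Nimrod and phagocytic genes, 13 passed the filter on low counts in inputs, and 8 of these were lower in dnmnatOE than in wild type before injury, against 6.44% of all genes. Against background 3 of them were lower in dnmnatOE (4.13% of all genes), while 7 were higher in wild type (5.37% of all genes). NimC4, a receptor for dying cells also known as simu, differed by −3.33 (SE 0.29) and NimB2 by −2.05 (SE 0.06). At 7 dpa the lowest value among the 13 was −0.41, that of NimC4, and 7 were higher, against 5.98% of all genes, among them Tep1, a thioester protein gene, at 2.15 (SE 0.44). With injury 12 of the 13 rose in dnmnatOE, against 26.5% of all genes, and 11 in wild type, against 17.8%, drpr, the engulfment receptor Draper, by 3.25 and 2.12 and NimC4 by 6.09 and 3.16. The median of the 13 in dnmnatOE was 3.38, against −0.06 over all genes tested.

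Of 18 other blood cell genes, all of which passed the filter, 8 were lower and 1 higher in dnmnatOE than in wild type before injury, against 6.44% lower and 1.1% higher over all genes. Against background 3 were lower in dnmnatOE (4.13% of all genes), while 8 were higher in wild type (5.37% of all genes). The collagen IV genes Col4a1 (−2.18) and vkg (−1.53), which fat body also expresses, and the matrix gene Ppn (−2.41) were among the lower ones. At 7 dpa 3 were lower and 1, the receptor gene Pvr (0.64), higher, against 7.27% and 5.98% of all genes. The lower ones belong to crystal cells, the blood cells of melanization: PPO1 (−1.13, SE 0.15) and PPO2 (−0.84, SE 0.09), both prophenoloxidase genes, and lz (−1.97, SE 0.30), a transcription factor gene that the eye also uses. With injury 10 of the 18 rose and 4 fell in dnmnatOE, against 26.5% and 24.2% of all genes. In wild type 10 rose and 2 fell, against 17.8% and 10.7%, and in background 6 rose and 1 fell, against 9.99% and 5.25%. PPO1 and PPO2 were among those that rose in dnmnatOE, by 2.79 and 2.77, and those that fell were lz (−3.08), kn (−1.41), peb (−1.28) and atilla (−1.24). The injury response was larger in dnmnatOE than in wild type for 8 and smaller for 2, against 13% and 9.15% of all genes. Hemese (He), a surface protein of hemocytes, had 6 to 84 reads per group of 3 inputs and was called in neither comparison of dnmnatOE with wild type.

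The chromosomal surroundings of NimC1 were examined next, as the Nimrod genes lie in a cluster. Annotated within 25 kb of it were 11 other genes, of which 10 passed the filter. Before injury 8 of these were lower in dnmnatOE than in wild type, against 6.44% of all genes, and at 7 dpa NimB2 (0.72), NimB5 (0.99) and NimC2 (1.16) were higher, against 5.98%. Apart from Ance-3, Cyp28a5 and rk, the 10 are Nimrod genes or He, so their counts largely overlap with those given above. In dnmnatOE 8 of the 10 rose with injury, against 26.5% of all genes, including the cytochrome P450 gene Cyp28a5, 0.533 kb from NimC1 on one side, by 3.65 (SE 0.08), and NimB4, 3.18 kb away on the other, by 4.63. He, 0.211 kb away, had 84 reads in the 3 wild-type inputs and 17 in the 3 dnmnatOE inputs of 7 dpa, and its difference of −1.89 (SE 1.41, edgeR adjusted p = 0.35) was not detectable at this depth. Only rk, the receptor of the hormone bursicon, fell with injury in dnmnatOE (−1.26). Within 250 kb, 46 of 72 other genes were tested. Before injury 15 of them were lower and 0 higher in dnmnatOE than in wild type, against 6.44% and 1.1% of all genes. The lowest value was −5.80, beyond that of NimC1 (−4.17). At 7 dpa 6 were lower and 5 higher, against 7.27% and 5.98% of all genes, with He at the lowest value of −1.89.

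**Figure D3:**
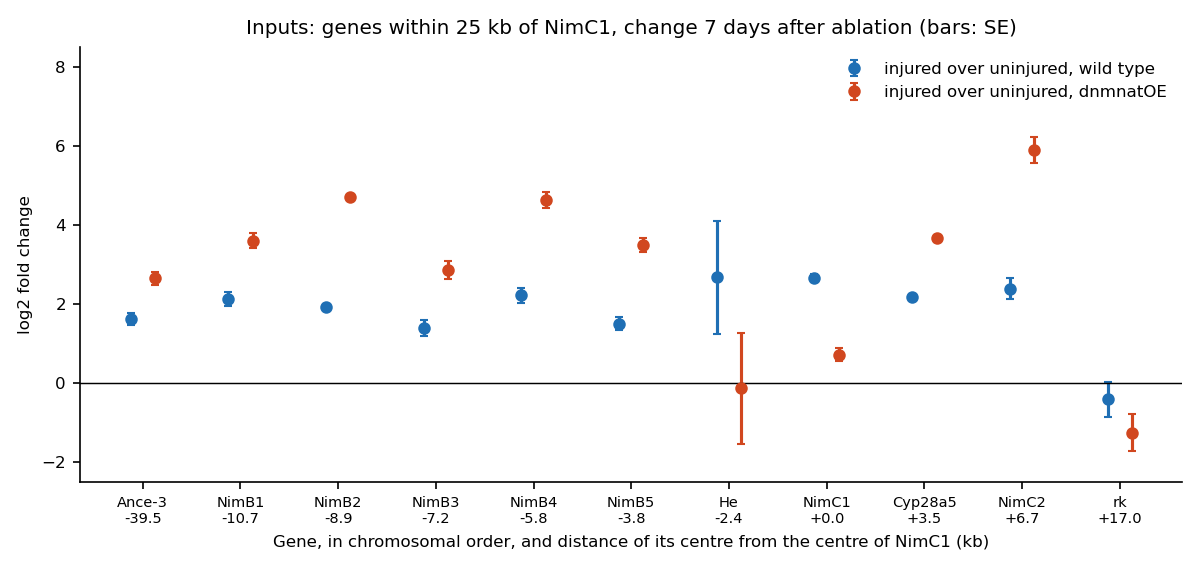
log2 fold change in inputs, 7 dpa over uninjured, for genes tested within 25 kb of NimC1, in chromosomal order with the distance of each gene's centre from that of NimC1 in kb; blue wild type, red dnmnatOE, bars SE. On both sides of NimC1 the Nimrod genes and Cyp28a5 rise more in dnmnatOE than in wild type, while NimC1 is at 0.72 against 2.65; He has few reads and wide bars.

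NimC2 overlaps rk on the opposite strand and crq overlaps ex, as NimB1 does NimB2, while Pxn overlaps CG16986 and 3 long noncoding RNA genes and srp 1. The strand setting of the count is not given, so that reads in shared stretches cannot be assigned. NimC1, eater, Hml, Sr-CI and NimB4 overlap no annotated gene. Reads counted as ambiguous made up 1.92% to 3.21% of the recorded reads of inputs.

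Levels of markers of other tissues also differed between injured and uninjured dnmnatOE inputs, where 26.5% of all genes rose and 24.2% fell with injury. In wild type 17.8% of all genes rose and 10.7% fell, and in background 9.99% and 5.25%. The 8 fat body genes listed summed to 60324 to 67594 CPM in uninjured and 244613 to 269526 CPM in injured dnmnatOE inputs, and to 65907 to 68544 and 138624 to 149524 CPM in wild type, with 6 of 8 higher and 2 lower after injury in dnmnatOE. In background the sum was 60586 to 61046 CPM before and 72521 to 83944 CPM after injury. Among these genes in inputs, Fbp1 alone was at 0, in uninjured dnmnatOE. The 4 neuronal genes (elav, brp, nSyb and Syt1) all fell with injury in dnmnatOE and in wild type, from 1030 to 1063 CPM to 286 to 294 CPM and from 857 to 866 CPM to 495 to 552 CPM. In background their sum was 1049 to 1059 CPM before and 725 to 834 CPM after injury, and no gene of the 4 passed the fold limit (−0.21 to −0.51). The 4 photoreceptor genes all fell in dnmnatOE, from 28909 to 29986 CPM to 10604 to 10857 CPM, and passed the limit neither in wild type (22332 to 22792 and 16653 to 17134 CPM) nor in background (32221 to 32818 and 26378 to 27728 CPM). The 4 muscle genes fell in dnmnatOE, from 1916 to 2067 CPM to 469 to 506 CPM, and 1 of them, Act88F, in wild type (1236 to 1294 and 997 to 1018 CPM). In background their sum was 1354 to 1369 and 1180 to 1257 CPM. The 6 glial genes listed, a class of cells that also uses Draper, summed to 320.2 to 339.8 CPM before and 577 to 604 CPM after injury in dnmnatOE, where 2 rose and 2 fell, and to 373 to 389 and 478 to 498 CPM in wild type. The part of these shifts in the blood cell results was not tested. None of the neuronal or muscle markers was at 0 in inputs.

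In pulldowns the members were counted at low depth, NimC1 with 0 to 157 reads per library, and background pulldowns, which hold no tagged ribosome, carried them as well. Between 48.5% and 60.3% of their recorded reads were ambiguous. NimC1 held 4.08, 1.04 and 7.33 CPM in background, 7.85, 11.6 and 24.8 CPM in wild type and 6.70, 0 and 3.96 CPM in dnmnatOE before injury. At 7 dpa it held 14.1, 37.8 and 45.9 CPM, 79.9, 159 and 80.8 CPM and 1.89, 1.18 and 9.77 CPM in the same order. The dnmnatOE pulldowns of 7 dpa thus lay below all pulldowns of the other genotypes of that time, by a fitted −4.52 (SE 0.81) against wild type and −2.80 (SE 0.79) against background. Without dnmnatOE replicate 3 of 7 dpa, the value against wild type was −5.97.

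With injury NimC1 rose in pulldowns of wild type by 2.87 (SE 0.76, edgeR adjusted p = 0.012) and of background by 2.99 (SE 0.83, edgeR adjusted p = 0.029). Without wild-type replicate 2 of 7 dpa the first was no longer called (2.46), without wild-type uninjured replicate 3 it was 3.46, and the second was not called without background uninjured replicate 1 (3.02) or 2 (2.53) or without background replicate 2 (2.87) or 3 (2.66) of 7 dpa. In dnmnatOE pulldowns NimC1 was at 0.24 (SE 0.81), with overlapping libraries, and at −0.27 without dnmnatOE uninjured replicate 2 and −1.24 without dnmnatOE replicate 3 of 7 dpa. Wild type rose for 2 of 9 members (Hml, 1.25), against 3.92% of all genes, and background for 2 (NimB4, 3.99), against 1.64%. In dnmnatOE 4 members rose, against 7.36%: NimB4 by 4.42 (SE 0.84), Sr-CI by 4.30 (SE 0.90), crq by 1.02 (SE 0.32) and Hml by 0.88 (SE 0.30). Hml and crq were no longer called when any 1 of the 6 dnmnatOE pulldowns was left out (0.68 to 0.96 and 0.89 to 1.07), whereas 2 calls were made each time. For Sr-CI the pooled counts were 6 before and 109 after injury, a ratio of 23.97 with an exact 95% counting interval of 10.7 to 66.7. Its fitted value became 3.55 without dnmnatOE replicate 1 of 7 dpa and 4.93 without dnmnatOE uninjured replicate 2, and NimB4 in background became 3.32 without replicate 2 of 7 dpa and 4.63 without uninjured replicate 2.

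Between dnmnatOE and wild type, pulldowns called 2 of the other 8 members lower before injury, against 4.16% of all genes, NimB4 (−3.93, SE 0.84, edgeR adjusted p = 0.00088) and Sr-CI (77 against 6 reads, a ratio of 35.7 with an interval of 15.7 to 100.4). The wild-type Sr-CI reads were 32, 3 and 42, and its fitted value of −4.94 became −4.19 without wild-type uninjured replicate 3 and −5.57 without dnmnatOE uninjured replicate 2. A fit of the compared groups alone did not call NimB4 (edgeR adjusted p = 0.063). In that fit Sr-CI did not pass the filter on low counts and was not tested. At 7 dpa edgeR called none of the 8 in either direction, against 1.23% higher and 1.37% lower over all genes, with 1 higher and 1 lower at an unadjusted p under 0.05 and 1 called higher by DESeq2, which gave 4 of the 8 no adjusted p. The interaction contrast likewise called none, against 1.77% higher over all genes, with 3 at an unadjusted p under 0.05 and 3 called by DESeq2, and 1 without wild-type uninjured replicate 1 or 2. At 7 dpa eater held 8.81, 20.1 and 16.5 CPM in dnmnatOE and 44.4, 43.6 and 22.8 CPM in wild type, and Sr-CI 45.3, 18.9 and 12.8 CPM against 90.3, 78.0 and 62.2 CPM, without overlap for either gene. NimC2 was also lower without overlap, at 7.33 to 16.5 against 17.2 to 56.2 CPM. Higher in dnmnatOE without overlap were srp, at 104 to 127 against 53.9 to 62.8 CPM, and crq, at 103.8 to 132 against 60.7 to 101.5 CPM.

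Tagged and untagged pulldowns differed for few members. Before injury 2 were called higher in wild type than in background, against 1.54% of all genes, NimB4 (3.38, SE 0.87) and eater, and 1 was lower, against 1.47%, Hml (−1.29, SE 0.31). eater had 13, 15 and 7 reads in wild type and 0 in all 3 background pulldowns, at least 5.45-fold higher against a floor of 3 counts per library. A fit of the compared groups alone did not call NimB4 or Hml, and eater did not pass its filter on low counts and was not tested. NimB4 was also not called without background uninjured replicate 1 (3.41) or 3 (2.94) and was at 4.01 without replicate 2. At 7 dpa only Sr-CI was higher (2.53, SE 0.76, edgeR adjusted p = 0.047), against 2.22% of all genes, and not with total gene counts as library sizes or when any 1 of the 6 pulldowns compared was left out (2.31 to 2.72). dnmnatOE pulldowns differed from background in Hml before injury (−1.10, SE 0.30), against 3.41% lower over all genes. That call was lost without background uninjured replicate 2 (−1.05) or dnmnatOE uninjured replicate 3 (−0.93). At 7 dpa edgeR called none of the 8, against 2.5% higher over all genes, with 0 at an unadjusted p under 0.05. DESeq2 called 0 as well and gave 2 of the 8 no adjusted p. Intervals and floors cover counting error only.

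**Figure D4:**
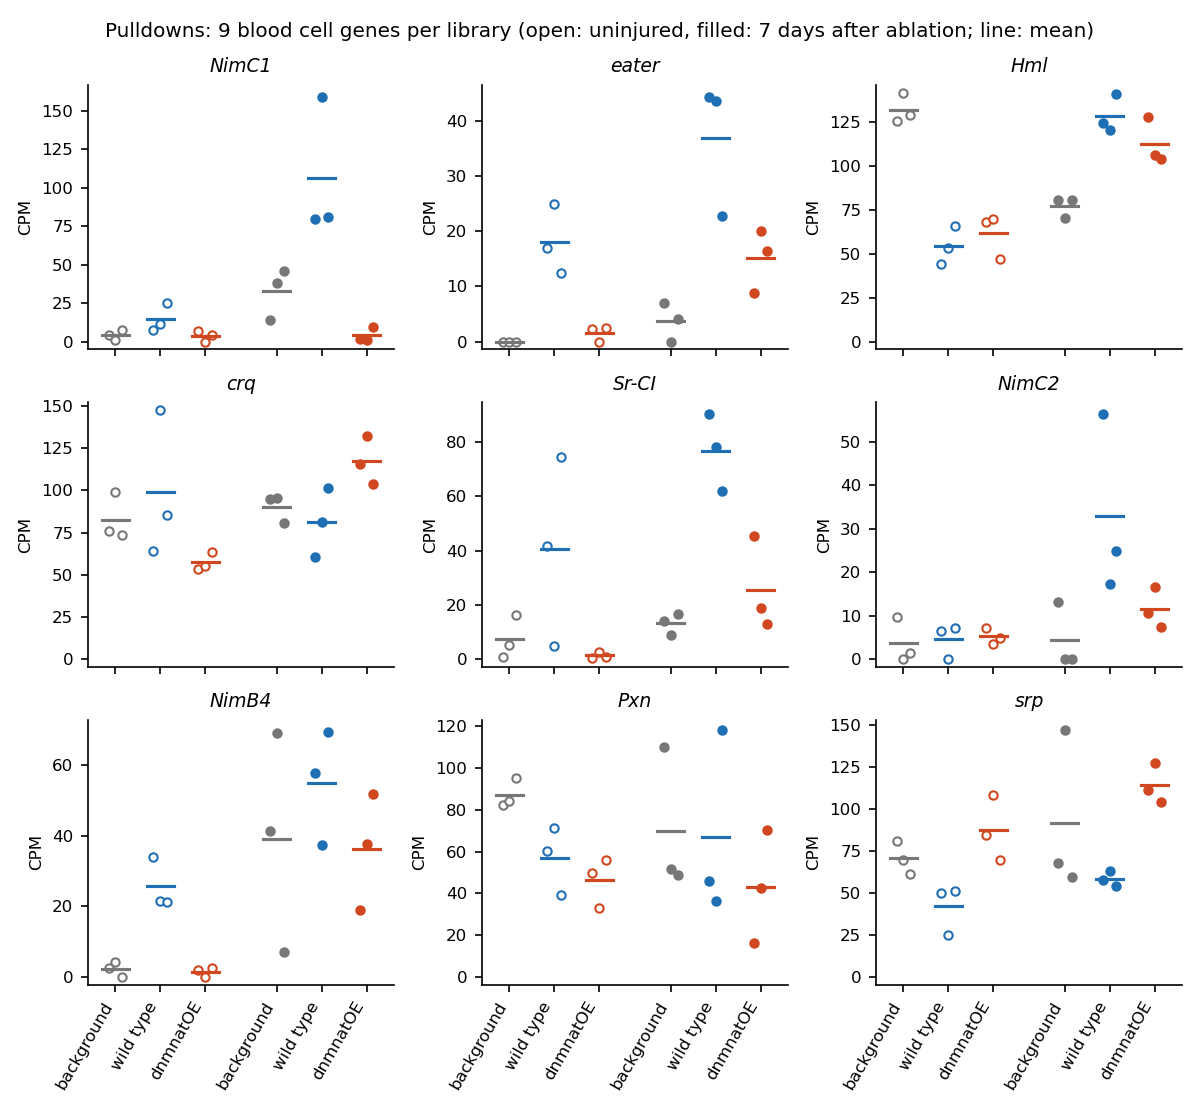
CPM of the 9 blood cell genes in each pulldown library (linear axes from 0, a separate range for each gene; open points uninjured, filled points 7 dpa, lines are means of 3 libraries). NimC1 reaches 79.9 to 159 CPM in wild type at 7 dpa and 1.18 to 9.77 CPM in dnmnatOE; Hml, crq, Pxn and srp are present in background, which has no tagged ribosome.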

How the data were processed

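RNA of fly heads was sequenced as input and pulldown in 12 groups of 3 libraries. The authors deposited a raw count for each gene and library, obtained with Trimmomatic, HISAT2, SAMtools and HTSeq on the FlyBase Release 6 annotation. Tool versions, counting mode and strand setting are not given in the sources used here. Summary rows that name no gene were left out. No 2 files were identical, and the chi-square per gene between 2 libraries from the same group was 4.04 to 34.3. Inputs (10437 genes tested) and pulldowns (7213) were each fitted over 18 libraries in R 4.3.3 with edgeR 4.0.16 (filterByExpr, TMM factors 0.678 to 1.19 and 0.820 to 1.29, robust quasi-likelihood test, 1 coefficient per group), with Benjamini-Hochberg adjustment over all genes tested. CPM uses TMM-normalized library sizes. SE was derived from the test, as the absolute log2 fold change divided by the square root of the quasi-likelihood F statistic. A gene was called at an adjusted p up to 0.05 with an edgeR log2 fold change past 0.6, limits that the study's methods set for DESeq2 and a regularized-logarithm fold change. Residuals of libraries that share a replicate number across groups had correlations of −0.037 to 0.039. Positions and symbols (17559 of 17611 genes) are from Ensembl release 115. Named were the 9 members, fixed gene lists, neighbours within 25 kb and the 5 genes most like NimC1. Members and lists were chosen with earlier results of these data known. The fits were tested on simulated data. Alternatives were DESeq2 1.42.0, other scalings, no filter, a replicate block, other sample sets and leaving out each library.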

Additional observations from a re-analysis of the deposited data

Results flagged for a closer look

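The injury response of several members differed between genotypes by the interaction contrast in inputs (edgeR, adjusted over all genes). Against wild type, the response of dnmnatOE was larger on the log2 scale by 1.59 for Hml, 2.42 for NimB4, 3.51 for NimC2, 1.23 for Pxn, 3.03 for Sr-CI, 0.88 for crq, 3.50 for eater and 0.94 for srp. Against background it was larger by 2.72 for Hml, 2.95 for NimB4, 3.56 for NimC2, 2.33 for Pxn, 3.25 for Sr-CI, 1.89 for crq, 3.48 for eater and 1.52 for srp. The response of wild type exceeded that of background by 1.13 for Hml, 1.10 for Pxn and 1.01 for crq. The contrasts against background were added after the data had been seen, and the contrasts share libraries. By the labels, all are differences between single pools of flies per genotype and condition.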

How the results depend on the processing

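Of the input fold changes of members, 585 of 609 kept direction and side of the threshold under the other settings, and 630 of 636 with 1 library left out. Of those in pulldowns, 96 of 106 did so under the other settings, and with 1 library left out 67 of 96, while 27 lost their call and 2 changed sign. With total gene counts as library sizes, a setting added after the data had been seen, the dnmnatOE to wild type difference at 7 dpa turned to −0.20 for Hml and −0.28 for Pxn, and the injury change of NimC1 in dnmnatOE to −0.033. The same setting called 0 members lower in dnmnatOE than in background in uninjured pulldowns, 1 between dnmnatOE and wild type and 0 between wild type and background in pulldowns of 7 dpa. In inputs, 1 fit of all 36 libraries called 0 members lower in dnmnatOE than in background before injury, 0 higher in dnmnatOE than in wild type at 7 dpa, 5 in the interaction of dnmnatOE with wild type and 1 in that of wild type with background. In pulldowns it called 1 between dnmnatOE and background at 7 dpa, 3 between dnmnatOE and wild type at 7 dpa, 4 lower in dnmnatOE before injury, 3 in the interaction and 5 higher in wild type than in background at 7 dpa. A fit of the compared groups alone called 1 input member lower in dnmnatOE than in background before injury. In pulldowns it called 2 between dnmnatOE and wild type at 7 dpa, 0 before injury, 0 and 1 rising with injury in background and wild type, 1 in the interaction, and between wild type and background 3 at 7 dpa and 0 higher and 0 lower before injury. The filter on low counts of that fit had removed NimB4 for injury in background. Before injury it had removed Sr-CI between dnmnatOE and wild type and eater between wild type and background. DESeq2 called 1 in pulldowns between dnmnatOE and wild type at 7 dpa, 0 rising with injury in background, 3 in the interaction and 2 higher in wild type than in background at 7 dpa. For injury in background it gave 5 of the 9 members no adjusted p. Counts between wild type and background in this section include NimC1.

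With 1 library left out, the interaction of wild type with background in inputs called 3 to 5 members. In pulldowns the calls were 0 to 1 for dnmnatOE under background before injury, 1 to 2 for injury in background, 2 to 2 in dnmnatOE and 1 to 2 in wild type, 0 to 1 for the interaction, 0 to 1 for wild type over background at 7 dpa and 1 to 3 before injury. The injury change of NimC1 in dnmnatOE pulldowns ranged from −1.24 to 0.96 and was −0.27 without dnmnatOE uninjured replicate 2. With the replicate block it was −0.017, and the block changed no other call. Libraries with the same number share only that number.

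Over all genes, 39 of 348 call counts in inputs and 68 of 272 in pulldowns moved beyond 1.5 times. Pulldown depth limits NimC1, eater, Sr-CI, NimC2 and NimB4 most. The cause of these shifts was not tested.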
